A study of Citrullus lanatus with 6 samples.

Results

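The genes described here are the Aux/IAA repressors that the study lists among its auxin signaling genes, 10 genes of the 23568 in the deposited table. They were taken from the study's hormone table by identifier, hormone and class alone, and all 10 are rows of the table of fragment densities (FPKM, fragments scaled to the length of the gene and the depth of the library). The measurements are leaf transcriptomes of watermelon (Citrullus lanatus) cultivar Crimson Sweet, from seedlings grown for 6 weeks, lifted out of the medium and stood in tubes. The control group (3 libraries) stood in water and the salt-treated group (3 libraries) in 300 mM NaCl, both for 7 h. The paper describes the libraries as independent, made from 3 replicate leaf tissues per treatment, with tissue collected from independent seedlings. It does not state that each library was a single plant. Both groups went through the same uprooting and washing, and leaf tissue was used in bulk, so that fewer cells of a type and less RNA per cell cannot be told apart. Some labels of the treated libraries name drought in place of salt. They are taken as salt-treated because the label on the treatment and the title of the series say so.

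Aux/IAA proteins are short-lived nuclear repressors of auxin signaling. They bind auxin response factors (ARF), the transcription factors that sit on auxin-responsive promoters, and keep these genes silent. Auxin joins an Aux/IAA protein to an F-box receptor of the TIR1/AFB family, the repressor is broken down, and the ARF proteins are freed. In Arabidopsis many Aux/IAA genes are themselves early auxin-responsive genes, together with GH3 genes, whose enzymes conjugate auxin to amino acids, and SAUR genes, which are linked to cell expansion. In leaves the pathway is known for its part in expansion and vein formation.

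The totals of fragments behind the FPKM values were 18838185 to 21258223 per library, and 1 fragment in a gene of 1000 bases was worth 0.0470 to 0.0531 FPKM. All 15 photosystem genes fixed as markers of leaf tissue were above 0 in every library, with a lowest value of 1.33 FPKM. Their summed FPKM was between 5758 and 10341 over control libraries and between 476 and 1999.6 over salt libraries. The paper names these same 15 genes as lowered by salt in these libraries. The difference in their sum therefore follows from how they were chosen and is no separate result. The libraries also differed in scale: median ratios to the reference lay between 1.21 and 1.29 for control and between 0.693 and 0.955 for salt libraries. Over the 16638 genes tested, those averaging 0.5 FPKM or more, the log2 fold change had a median of -0.57 on the log2(FPKM + 0.5) scale, and -0.05 after each library was divided by its median ratio. This scale understates the change of weakly expressed genes. The part of these shifts in the values below was not tested.

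Salt-treated leaves held less transcript of 7 Aux/IAA genes and more of the other 3. The 7 lower genes had 4.07-fold (ClCG07G000600) to 25.4-fold (ClCG05G004660) higher mean FPKM in control than in salt-treated leaves, and no control library overlapped a salt library in any of them. Of the 3 higher genes, ClCG06G006610 and ClCG06G007280 did not overlap between treatments either, and ClCG06G011420 did. For comparison, 43.4% of all genes tested were lower and 17.7% higher in salt without overlap. The study chose the 10 genes as differentially expressed between these same libraries, so the differences are given as a description, without a test, and the counts support nothing. All 10 passed the expression filter, ClCG09G002350 only through its control values, as its mean in salt was 0.405 FPKM. In the limma fit across all genes, 7 were lower and 2 higher at an adjusted p below 0.05, where 34.2% of all genes tested were called lower and 13.6% higher. The 7 were called lower under each of 16 alternative settings. The count of 2 higher genes was 0 without control replicate 1, without control replicate 2, without salt replicate 2 or without salt replicate 3, and 1 without control replicate 3 or without salt replicate 1. The median log2 fold change of the 10 genes was -2.37.

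**Figure D1:**
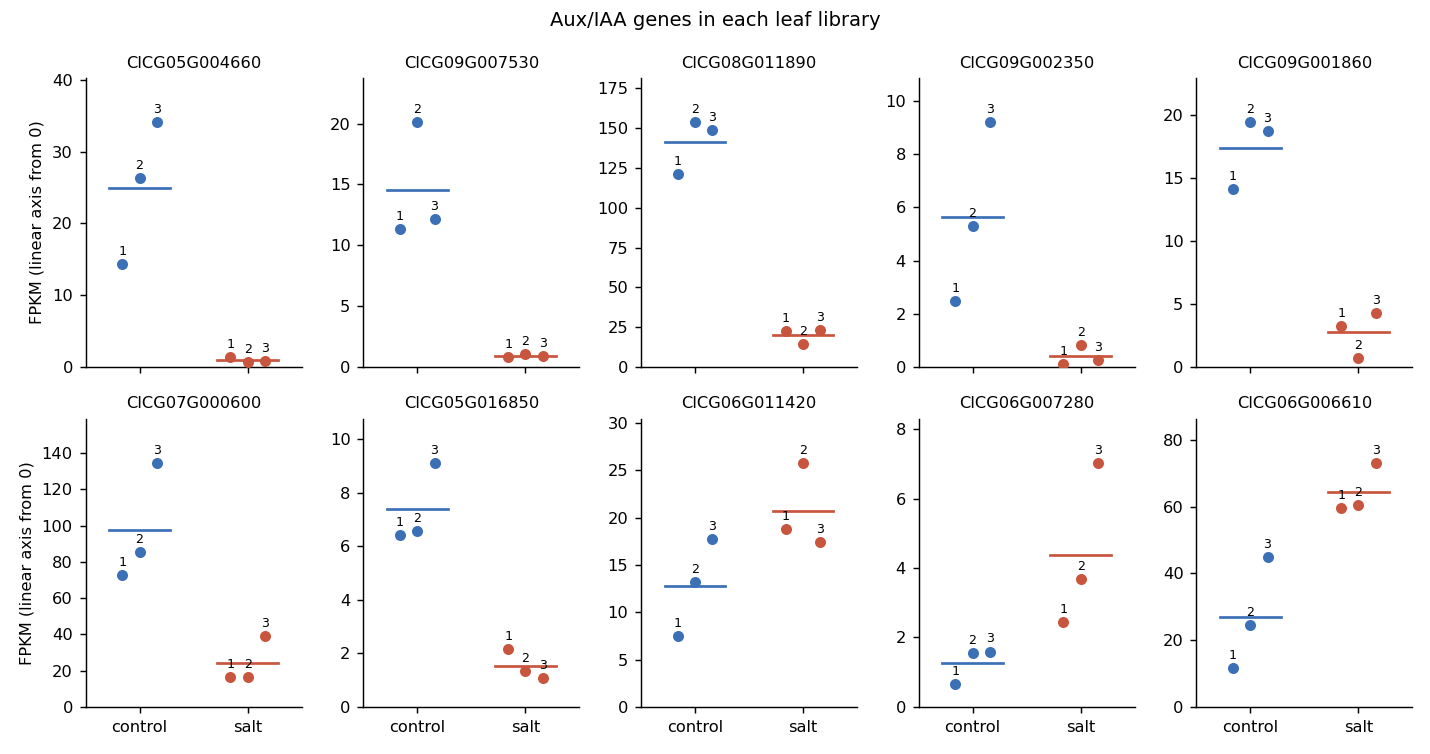
FPKM (linear axes from 0, a separate range for each gene) of the 10 Aux/IAA genes in each library, ordered by log2 fold change; points are libraries, with their replicate number, and lines are means of 3 libraries. In 7 genes all salt points lie under all control points; in ClCG06G011420 the highest control value (17.7) lies above the lowest salt value (17.4).

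The largest decrease was that of ClCG05G004660, described as an auxin responsive protein. It had 14.4, 26.3 and 34.1 FPKM in control replicates 1 to 3 and 1.42, 0.654 and 0.864 FPKM in salt replicates 1 to 3. The lowest control library was thus far above the highest salt library. The means were 24.9 ± 9.92 (SD, n = 3) and 0.981 ± 0.398 FPKM (SD, n = 3), a log2 fold change of -4.05 (standard error 0.414). Its values in salt rest on 28, 13 and 18 fragments, and on 309 to 665 fragments in control.

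ClCG09G007530, an auxin-responsive protein by its description, was the next. Its control libraries had 11.3, 20.1 and 12.2 FPKM and its salt libraries 0.775, 1.07 and 0.877 FPKM. Control replicate 2 stood above the other control libraries, while the salt libraries lay close together. The log2 fold change was -3.37 (standard error 0.359), 16.0-fold in mean FPKM. The values in salt rest on 20, 28 and 24 fragments.

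ClCG09G002350, also described as an auxin-responsive protein, was weakly expressed in both treatments and the least expressed Aux/IAA gene in salt. It had 2.47, 5.28 and 9.20 FPKM in control and 0.113, 0.836 and 0.266 FPKM in salt libraries. The spread was wide in both groups (coefficient of variation 59.7% in control and 94.2% in salt), with no overlap between them. The salt values rest on 2, 15 and 5 fragments, and the exact 95% Poisson interval of the lowest, 0.0136 to 0.407 FPKM, covers counting error only. The log2 fold change of -2.69 (standard error 0.544) grew in size to -3.60 with a pseudocount of 0.1 and to -3.90 in a fit to recovered fragments.

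The most abundant Aux/IAA transcripts in control leaves, ClCG08G011890 and ClCG07G000600, both auxin-responsive proteins by description, were lower in salt. ClCG08G011890 had 121, 154 and 149 FPKM in control and 22.6, 14.3 and 23.3 FPKM in salt libraries. It was the gene with the smallest relative spread in control (coefficient of variation 12.5%), and its means of 141 ± 17.6 and 20.1 ± 5.0 FPKM (SD, n = 3 each) gave a log2 fold change of -2.81 (standard error 0.259). ClCG07G000600 had 73.0, 85.6 and 135 FPKM in control and 16.5, 16.7 and 38.9 FPKM in salt libraries, a log2 fold change of -2.07 (standard error 0.391). Replicate 3 was the highest library of this gene in each treatment. Both genes had at least 174 fragments in every library.

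The remaining lower genes were ClCG09G001860, of an auxin-responsive family by its description, and ClCG05G016850, described as auxin/indole-3-acetic acid protein IAA4, which in Arabidopsis belongs to the auxin-inducible members. ClCG09G001860 had 14.1, 19.4 and 18.7 FPKM in control and 3.22, 0.715 and 4.30 FPKM in salt libraries. Salt replicate 2, with 20 fragments, stood below the others, and the log2 fold change was -2.67 (standard error 0.521). ClCG05G016850 had 6.44, 6.58 and 9.13 FPKM in control and 2.17, 1.35 and 1.07 FPKM in salt libraries. It had the smallest decrease of the 7 genes on the log2 scale, -1.98 (standard error 0.368).

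ClCG06G006610, described as an auxin-responsive protein, was the most abundant of the 3 genes with higher means in salt. It had 11.7, 24.4 and 44.9 FPKM in control and 59.6, 60.4 and 73.2 FPKM in salt libraries. The control libraries differed widely from each other (coefficient of variation 62.1%), the salt libraries little (11.8%). The means were 27.0 ± 16.8 and 64.4 ± 7.61 FPKM (SD, n = 3 each), 2.39-fold higher in salt, and the log2 fold change was 1.43 (standard error 0.440). Without control replicate 1, the lowest library, this log2 fold change was 0.94.

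ClCG06G007280, an auxin responsive protein by its description, was the least expressed Aux/IAA gene in control leaves. It had 0.648, 1.56 and 1.60 FPKM in control and 2.46, 3.67 and 7.04 FPKM in salt libraries. The gap between the highest control and the lowest salt library was small beside the spread of the salt libraries. Its means differed 3.46-fold and its log2 fold change was 1.41 (standard error 0.478), on 17 to 42 fragments in control and 59 to 179 in salt libraries.

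ClCG06G011420 is described as the indole-3-acetic acid inducible gene IAA29, which in Arabidopsis is known as an Aux/IAA gene raised in shade. It had 7.46, 13.2 and 17.7 FPKM in control and 18.8, 25.8 and 17.4 FPKM in salt libraries. Control replicate 3 exceeded salt replicate 3, so the treatments overlapped, and this was the smallest difference among the 10 genes. The log2 fold change was 0.73 (standard error 0.355), and 0.40 without control replicate 1.

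Dividing each library by its median ratio moved all 10 log2 fold changes upward and turned none of them. ClCG05G004660 then had -3.57, ClCG05G016850 -1.48 and ClCG06G006610 2.01. The value of ClCG06G011420 went from 0.73 to 1.29, and its scaled values no longer overlapped. In that fit 7 of the genes were lower and 3 higher by limma's adjusted p, where 20.9% of all genes tested were called lower and 22.4% higher. Beside the median of all genes tested, the 10 genes as deposited ran from -3.48 to 2.00 in log2 fold change.

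**Figure D2:**
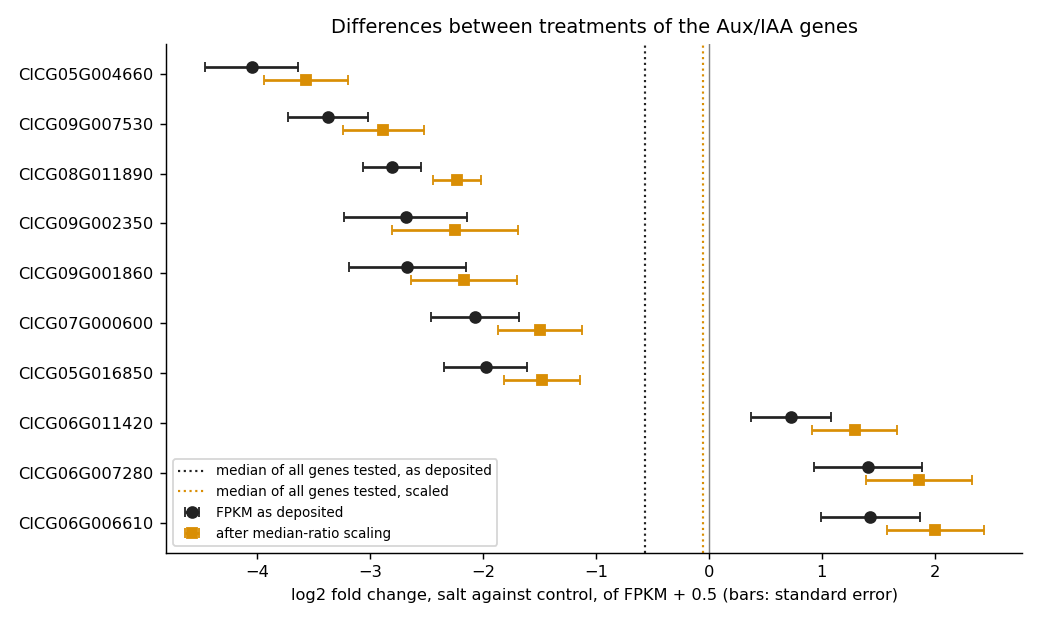
Log2 fold change of FPKM + 0.5, salt against control (horizontal axis, bars are standard errors), for the 10 Aux/IAA genes as deposited (circles) and after median-ratio scaling (squares); dotted lines are the medians of all genes tested, -0.57 and -0.05. The 7 lower genes stay left of both lines and the 3 higher genes right of them under either scaling.

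The makeup of the Aux/IAA transcripts differed between treatments. The 10 genes summed to 262, 356 and 431 FPKM in control replicates 1 to 3. In salt replicates 1 to 3 they summed to 128, 126 and 167 FPKM, with 2.5-fold more in control by the means. This sum and its fold depend on the scale of each library and were not computed after median-ratio scaling. The share of each gene in the sum does not depend on that scale. ClCG08G011890 and ClCG07G000600 held 41.3% ± 6.01 and 27.7% ± 3.61 of this sum in control (SD, n = 3) and 14.3% ± 3.17 and 16.5% ± 5.85 in salt-treated leaves (SD, n = 3). ClCG06G006610 went from 7.23% ± 3.00 to 46.2% ± 2.21 and became the largest part of the sum in all 3 salt libraries.

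The 3 genes with higher means in salt together held 7.53%, 11% and 14.9% of the sum in the control libraries and 63.3%, 71.6% and 58.4% in the salt libraries. ClCG06G011420, whose FPKM overlapped between treatments, held 2.84% to 4.10% of the sum in control and 10.4% to 20.6% in salt libraries. ClCG05G004660 held 5.48% to 7.90% of it in control and 0.517% to 1.12% in salt libraries. These shares use the same difference between treatments by which the genes were chosen, and they cover the 10 listed genes only.

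**Figure D3:**
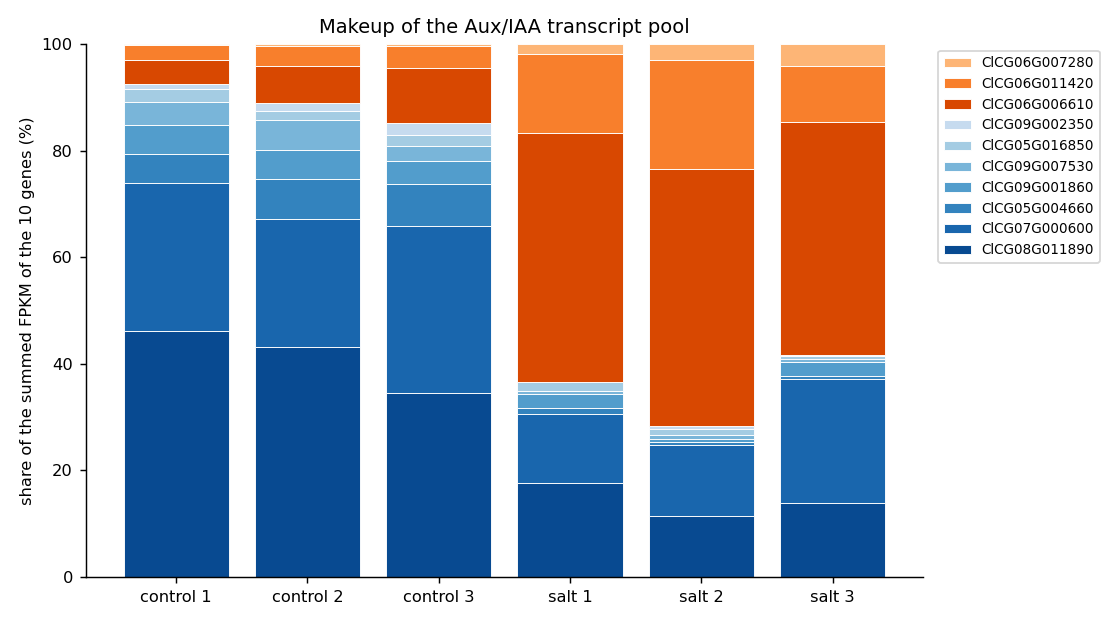
Share (%) of the summed FPKM of the 10 Aux/IAA genes that each gene held in each library; blue parts are the 7 genes lower in salt and orange parts the 3 genes with higher means in salt. The orange parts take 7.53% to 14.9% of the control bars and 58.4% to 71.6% of the salt bars.

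The order of the levels in FPKM, which are per length of gene, changed with the treatment. In control leaves ClCG08G011890 and ClCG07G000600 were at the top and their ranges overlapped, although ClCG08G011890 was higher in each of the 3 libraries. A gap without overlap separated them from ClCG06G006610, ClCG05G004660, ClCG09G001860, ClCG09G007530, ClCG06G011420, ClCG05G016850 and ClCG09G002350, in this order, where each gene overlapped the next. ClCG06G007280 stood below all of these without overlap.

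In salt-treated leaves ClCG06G006610 was above all others without overlap. ClCG07G000600, ClCG06G011420 and ClCG08G011890 came next with overlapping ranges from 14.3 to 38.9 FPKM. Below another gap followed ClCG06G007280, ClCG09G001860, ClCG05G016850, ClCG05G004660, ClCG09G007530 and ClCG09G002350, where each gene overlapped the next and none exceeded 7.04 FPKM.

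Ranks within a library gave the same division. Among all genes tested, ClCG05G004660 stood between percentiles 53.8 and 74.8 in control and between 12.1 and 14.8 in salt libraries. ClCG08G011890 went from between 93.6 and 95.2 to between 65.8 and 72.2, and ClCG06G006610 from between 48.4 and 80.9 to between 87.7 and 90.4. In percentiles none of the 10 genes overlapped between treatments, and neither did 57.5% of all genes tested.

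**Figure D4:**
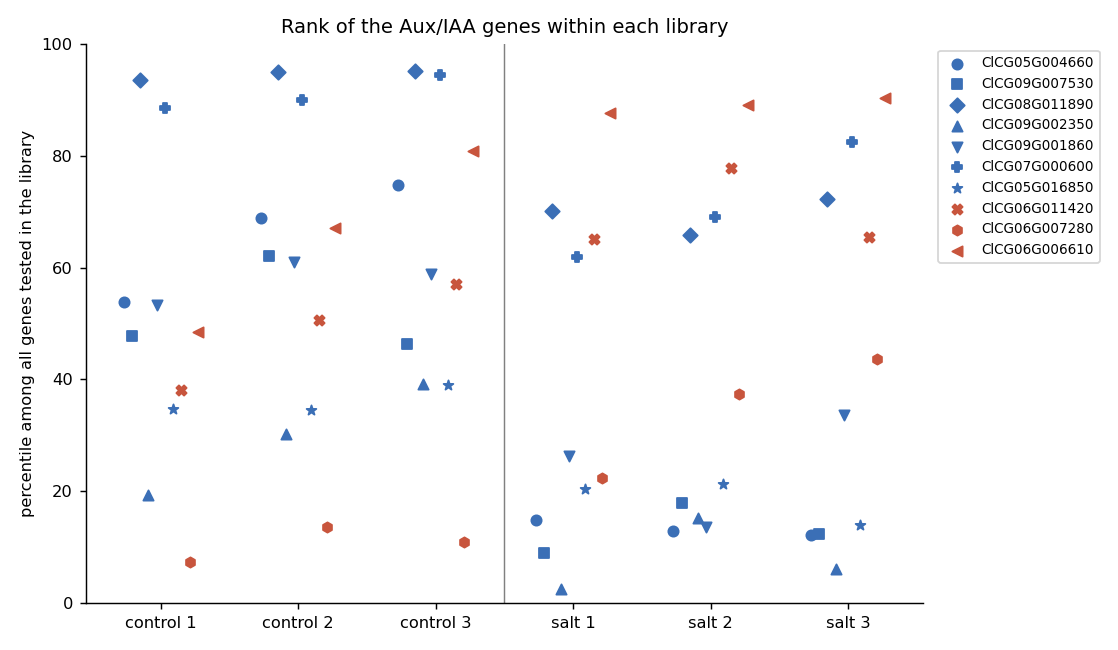
Percentile of each Aux/IAA gene among all 16638 genes tested in the same library (vertical axis) for the 6 libraries; symbols are genes, blue for those lower in salt and red for those with higher means. ClCG06G006610 lies between 87.7 and 90.4 in salt libraries, and ClCG05G004660 between 12.1 and 14.8.

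The differences within a treatment do not use the difference between treatments on which the genes were chosen. The study's choice by adjusted p also depends on the spread within treatments, so they are not free of that choice. Control replicate 1 had the lowest FPKM of the control libraries in all 10 Aux/IAA genes, in the 7 lower and the 3 higher ones alike, while it was the lowest control library for 36.3% of all genes tested. After median-ratio scaling it was the lowest in 9 of the 10 genes (30.2% of all genes tested), and by percentile in 8 (29.4%). Among the other auxin genes of the hormone table it was the lowest in 7 of 16. Salt replicate 1 was the lowest salt library in 5 of the 10 genes in FPKM (17.3% of all genes tested), in 6 after median-ratio scaling (30.8%) and in 6 by percentile (32.7%). These counts were made after the values had been seen, and no test was made of them.

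Some Aux/IAA genes spread more between control libraries than genes of a like level. The SD of log2(FPKM + 0.5) in control was 0.95 for ClCG06G006610, above that of 97.8% of the 500 genes nearest in mean level, whose median was 0.23. It was 0.62 for ClCG05G004660 (above 92.8%) and 0.85 for ClCG09G002350 (above 90.0%). In salt the same genes were at 19.2%, 17.6% and 43.4%. The largest SD of a salt group was that of ClCG09G001860, 1.05, above 84.6% of its neighbours in level, and ClCG07G000600 had 0.69 (above 82.8%). The smallest SD of a salt group was that of ClCG09G007530, 0.15, which exceeded 3.2% of its neighbours in level. Near 1 FPKM the pseudocount narrows the spread.

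Deviations from the treatment means were compared between genes over the 6 libraries, as a description, with 4 degrees of freedom and all genes measured in the same libraries. Over the 45 pairs of Aux/IAA genes Pearson's r had a median of 0.37 and ran from -0.44 to 0.97, and 36 pairs were above 0. ClCG09G001860 and ClCG08G011890, both lower in salt, had the highest value (0.97). ClCG09G002350 and ClCG06G011420, which lay in opposite directions between treatments, had 0.96. The pairs of 1 lower and 1 higher gene had a median of 0.39, and the pairs of lower genes 0.22. The 3 pairs of higher genes had a median of 0.65. Pairs that lay in opposite directions between treatments were thus found near both ends of the range. After median-ratio scaling 33 of the 45 pairs were above 0. The pairs of lower genes then had a median of 0.15, with 12 of 21 above 0. No value for pairs drawn from all genes stands beside these, so nothing particular to the family is read from them.

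Over all 6 libraries, treatment difference included, ClCG05G004660 and ClCG08G011890 were the most alike of the lower genes (r of log2(FPKM + 0.5) 0.99), and ClCG06G006610 and ClCG06G011420 of the higher ones (0.91). Outside the family, among 11930 genes averaging 5 FPKM or more, the profile of the lower genes was closest to ClCG10G020850, ClCG09G008840 and ClCG02G022400 (r of 0.9996, 0.9994 and 0.9988). That of the higher genes was closest to ClCG10G003030, ClCG05G021510 and ClCG01G000230 (r of 0.995, 0.993 and 0.992). A value above 0.95 was reached by 1143 genes for the lower profile and by 89 for the higher, so that these genes are the first of many. Their functions are not given in the sources used here.

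Next to the 10 genes in the order of identifiers stand 20 genes, of which 14 passed the expression filter. By limma's adjusted p, 10 of these were lower and 1 higher (34.2% and 13.6% of all genes tested), and 9 had the sign of the Aux/IAA gene beside them. ClCG06G006610, with its higher values in salt, stands beside ClCG06G006600, which had 39.0 ± 6.25 FPKM in control and 7.96 ± 5.53 FPKM in salt libraries (SD, n = 3 each). ClCG05G016850, lower in salt, stands beside ClCG05G016860, which had 46.0 ± 4.39 in control and 88.0 ± 10.1 FPKM in salt libraries (SD, n = 3 each). The neighbours thus did not move with the Aux/IAA genes throughout.

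The other auxin genes of the study's hormone table were chosen on the same contrast and are described in the order of the pathway. Of the 18 genes, 16 passed the expression filter, and limma called 11 of these lower and 5 higher in salt (34.2% and 13.6% of all genes tested). The median log2 fold change of the 16 was -2.00, beside -2.37 for the Aux/IAA genes. After median-ratio scaling 10 were lower and 5 higher (20.9% and 22.4% of all genes tested).

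Upstream of the repressors, limma called 2 of the 3 AUX1-type carriers, which bring auxin into cells, lower (34.2% of all genes tested). ClCG11G006270 did not pass the expression filter, and the other 2 passed it only through their control values. ClCG04G007060 had 2.34, 4.20 and 4.36 FPKM in control and 0.265, 0.320 and 0 FPKM in salt libraries. ClCG07G004080 and ClCG11G006270 were listed at 0 in all 3 salt libraries, where control libraries had 0.881 to 1.15 and 0.123 to 0.696 FPKM. The receptor gene of the list, ClCG09G006450, described as auxin signaling F-box 2, had 12.3, 10.7 and 22.8 FPKM in control and 3.77, 1.04 and 6.23 FPKM in salt libraries. Its log2 fold change of -2.08 (standard error 0.571) was close to that of the Aux/IAA gene ClCG07G000600, -2.07 (standard error 0.391).

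The ARF genes, whose products the Aux/IAA proteins bind, lay on both sides of 0. ClCG01G023350, described as ARF3a, had 28.3, 13.9 and 9.31 FPKM in control and 5.51, 0.820 and 1.82 FPKM in salt libraries. ClCG09G009470, which passed the filter only through its control values, was lower as well, with a log2 fold change of -1.31 that was not called after median-ratio scaling. ClCG11G000280 was the exception, with 30.5, 26.7 and 45.9 FPKM in control and 109.9, 106 and 120.0 FPKM in salt libraries, a log2 fold change of 1.72 (standard error 0.255). In salt libraries it was thus more abundant than every Aux/IAA gene, of which the highest value was 73.2 FPKM.

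Of the early auxin-responsive families, the 3 GH3 genes were higher and most of the listed SAUR genes lower in salt. The GH3 gene ClCG05G010400 had 1.36, 2.93 and 8.47 FPKM in control and 386, 83.9 and 93.0 FPKM in salt libraries. The log2 fold changes of the GH3 genes ran from 2.62 to 5.23. In ClCG01G017190 (standard error 1.25) salt replicates 1 and 2 had 233 and 250 FPKM. Salt replicate 3 had 6.49, not far above the highest control value of 4.57. ClCG01G017180 had 0.895, 1.72 and 9.48 FPKM in control and 16.1, 25.4 and 16.3 FPKM in salt libraries. Of the 8 SAUR genes 7 passed the expression filter, with 6 called lower and 1 higher (34.2% and 13.6% of all genes tested). Of the 6, ClCG02G004420 and ClCG11G003720 passed the filter only through their control values, with means in salt of 0.257 and 0 FPKM. The higher one, ClCG04G009170, was listed at 0 in all control libraries and had 5, 6 and 19 fragments in the salt libraries, and it passed the filter only through its values in salt. Differences between the families were not tested.

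Another 6 genes carry auxin in their description in the part of the study's list of changed genes that was at hand, which holds raised genes only. All 6 had higher means in salt, and 5 of them did not overlap (17.7% of all genes tested were higher without overlap). The exception, ClCG07G014380, is described as SAUR-like, as the listed SAUR genes are, and was called higher with a log2 fold change of 1.87, but it is not in the hormone table and not in the count of SAUR genes above. The 6 also include ClCG11G019060, an auxin efflux carrier family protein, with 20.2 ± 14.7 and 211 ± 30.8 FPKM (SD, n = 3 each), and ClCG02G002190, an auxin-responsive family protein, with 35.2 ± 15.2 and 211 ± 46.3 FPKM (SD, n = 3 each). The latter shares its description with the Aux/IAA gene ClCG09G001860, but the hormone table does not class it, and it was not counted among the repressors. Another of the 6, ClCG03G014950, passed the filter only through its values in salt.

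**Figure D5:**
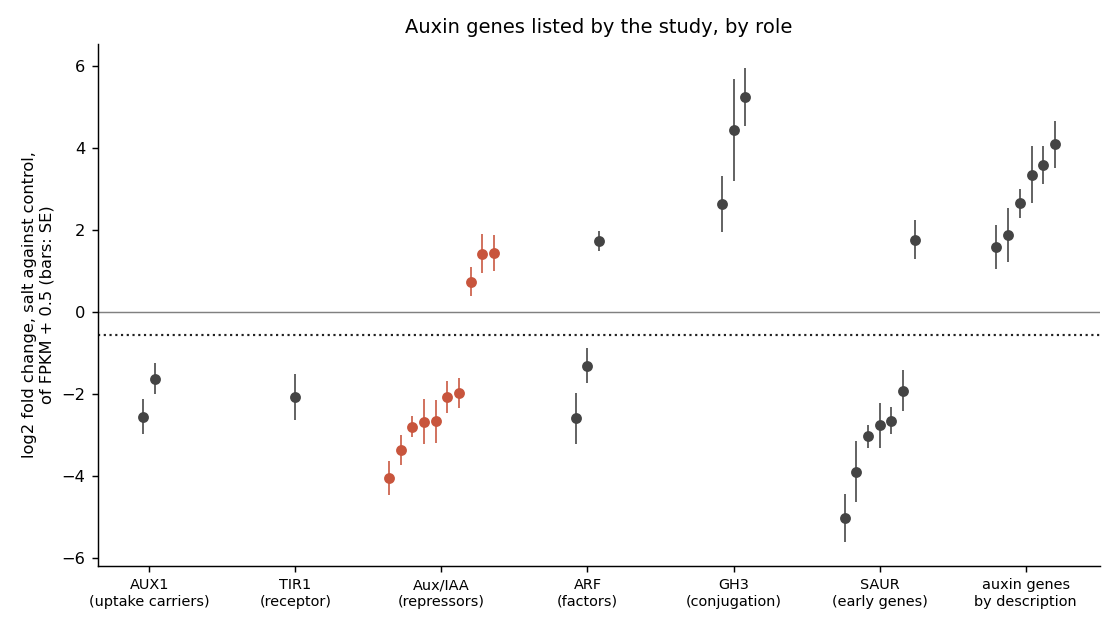
Log2 fold change of FPKM + 0.5, salt against control (vertical axis, bars are standard errors), of the listed auxin genes that passed the expression filter, by role; the Aux/IAA genes are in red and the dotted line is the median of all genes tested, -0.57. The Aux/IAA genes lie between -4.05 and 1.43, the GH3 genes between 2.62 and 5.23.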

How the data were processed

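Leaf RNA was sequenced as paired-end reads, 3 libraries per treatment. The authors deposited FPKM values from reads mapped to the Charleston Gray genome, with no scaling between libraries. The paper names Bowtie, TopHat and HTSeq, the submitters' processing notes fastp, HISAT2 2.1.0 and featureCounts; which of them made the values, and whether strand was used, is not given in the sources used here. Reads shared by close copies or antisense transcripts could not be told apart.

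Genes averaging 0.5 FPKM or more were tested with limma 3.58.1 (R 4.3.3) on log2(FPKM + 0.5), two-sided, with a variance trend, and p-values were adjusted by Benjamini-Hochberg across the whole table of tested genes. The study's own test on counts was not used, since the deposited values are FPKM; a fit to recovered fragments (voom) was an alternative. The limma fit was also run on simulated data with the control means and spreads in both groups. No difference in scale between libraries was simulated, so that run does not cover the scale differences seen here. Fragments were recovered as whole numbers at the smallest fitting gene length (within 0.002 fragments or 1e-07 of the count); 19557 of 19557 genes with a value had a solution. The members and lists, and the rule for named genes, were chosen with earlier results of these data known. Named genes are the listed auxin genes, the 3 most alike genes per profile, and neighbours by identifier. Deviations of control and salt libraries of the same replicate number had r of 0.175, 0.105 and 0.128, so a replicate block was tried. No label pairs these libraries, and whether they are paired was not tested. For different numbers r was -0.108 to -0.0391. Deviations within a treatment sum to 0, so these negative values follow from the positive ones and are no separate evidence. Alternatives changed the pseudocount, filter, scaling, variance model, block, fragments and each library left out. No sequences are printed, since no reference was used here. Columns of the authors' own comparisons in the paper's tables were not used. Figures were drawn with matplotlib 3.10.9 and the tables written in Python 3.11.15 (pandas 2.3.3, numpy 2.4.6).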

Additional observations from a re-analysis of the deposited data

How the results depend on the processing

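All 10 log2 fold changes kept their direction under each of 16 alternative settings. Of 160 values, 147 moved by less than the spread between replicates and 13 by more. The 7 lower Aux/IAA genes were called in every setting; the count of higher ones, 2 as reported, was 1 without a filter on low values and 1 with voom on recovered fragments, and 0 to 1 with 1 library left out. ClCG06G011420 was called only after median-ratio scaling and quantile normalization. The median log2 fold change of the 10 genes ran from -2.57 to -1.83. Over all genes, 5684 lower and 2266 higher calls became 3472 and 3719 after median-ratio scaling (28.5% against 51.7% higher), and 3602 were higher after quantile normalization. With 1 library left out, 3705 to 5616 were lower and 1624 to 2113 higher, the fewest of both without control replicate 2. With the replicate block, 5737 genes were called lower and 2279 higher, and the calls of the Aux/IAA genes stayed at 7 and 2. The median r over pairs within treatments was 0.40 after median-ratio scaling. Values under about 30 fragments, as for ClCG09G002350, ClCG09G007530 and ClCG05G004660 in salt, limit the precision of the largest decreases.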
